A study of Rattus norvegicus with 6 samples.

Results

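Osteopontin and mineralization genes are a set of 10 genes picked by name, with earlier results of these data known: Spp1, Postn, Mgp, Runx2, Sp7, Dlx5, Msx1, Msx2, Alpl and Enpp1. All 10 had 1 row each among the 33300 genes of the deposited table. Their RNA was measured by sequencing in rat tendon stem/progenitor cells, a mesenchymal precursor population of tendon, after 7 days of culture. The Control group (3 libraries) grew in F12 medium, and the NAC group (3 libraries) in F12 to which 500 uM N-acetyl-L-cysteine was added. NAC is a thiol antioxidant and cysteine source. The labels carry the words tenogenic differentiation for both groups and give no strain, sex, age or number of animals. Whether replicates are independent cultures is not stated, and the p-values therefore reflect the spread among these samples alone, which may be technical.

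Mineralized tissue forms when matrix-secreting cells supply phosphate and remove inhibitors of crystal growth. RUNX2 and, downstream of it, SP7 (osterix) are the transcription factors that commit mesenchymal cells to the osteoblast lineage, with the homeodomain proteins DLX5, MSX1 and MSX2 acting around them. ALPL, tissue-nonspecific alkaline phosphatase, breaks down pyrophosphate, an inhibitor of crystal growth that ENPP1 makes. MGP, matrix Gla protein, restrains calcification of soft tissue, osteopontin (SPP1) is a phosphorylated matrix protein that binds both mineral and integrins, and periostin (POSTN) is a matricellular protein of periosteum, ligament and tendon.

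The stretches before the start site are shown for Spp1, the 1 member that passed the test, and for Runx2, because RUNX proteins bind the hexamers TGTGGT and TGCGGT. RefSeq promoter entries (build GRCr8) were found for 6 of the 10 members, 7 entries in all. Each line gives the 250 bases before the annotated start, 5′ to 3′ on the gene's strand, with a match to either hexamer on either strand in capitals.
Spp1 (GRCr8, minus strand, chr14:5619805-5620054): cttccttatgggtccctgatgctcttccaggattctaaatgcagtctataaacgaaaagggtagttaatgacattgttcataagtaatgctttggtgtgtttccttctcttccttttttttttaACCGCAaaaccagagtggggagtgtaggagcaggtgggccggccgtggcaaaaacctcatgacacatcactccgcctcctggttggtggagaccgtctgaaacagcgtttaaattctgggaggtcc
Runx2, its upstream start (GRCr8, plus strand, chr9:23664808-23665057): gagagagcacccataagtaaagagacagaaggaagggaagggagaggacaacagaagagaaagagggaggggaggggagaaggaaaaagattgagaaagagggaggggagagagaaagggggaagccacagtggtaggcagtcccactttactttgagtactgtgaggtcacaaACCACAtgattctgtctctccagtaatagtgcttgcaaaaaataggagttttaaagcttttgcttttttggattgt
The Spp1 stretch holds 1 match, to TGCGGT on the opposite strand, beginning 126 bases before the start, and the Runx2 stretch holds 1 match to TGTGGT, also on the opposite strand, 76 bases before it. Neither hexamer occurs in the other 5 member entries. Of 33469 rat promoter stretches of this length 19.0% hold 1 or both hexamers, 14.5% the first and 5.02% the second. A match describes letters and does not show that a factor binds.

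The reads behind each value could be recovered from the deposited FPKM (fragments per kilobase of gene, scaled by a total for each library). They summed to 12487215 to 14941949 per library. The totals behind the deposited scaling were 1.02 to 1.04 times these sums in Control and 0.909 to 0.925 times with NAC. Deposited values therefore stand higher with NAC, relative to Control, than values scaled to recovered reads, which are called library totals below. What set the deposited totals is not stated. Control 2 stood apart from its group: recovered reads differed by 9.72 and 9.54 chi-square units per degree of freedom in the pairs with it, against 3.74 for Control 1 with Control 3 and 3.71 to 5.54 between NAC libraries. Values of the 10 genes that Control 2 moved are therefore also given without it. All 8 tendon markers and all 6 mesenchymal progenitor markers reached a mean FPKM of 1, among them Scx, Mkx and Tnmd, which mark tendon cells. Of 7 osteoblast and osteocyte markers, 5 (Bglap, Dmp1, Phex, Mepe and Sost) were at or under 3 reads per library on average in both groups, the floor used here. Gene coordinates are as deposited, and no source used here names their rat build. Columns headed N were read as Control because the other columns carry the NAC label, and every direction below rests on that.

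The 10 genes ran from matrix Gla protein, among the most abundant transcripts of these cells, down to transcripts with a handful of reads. By mean FPKM over the 6 libraries the order was Mgp (2632), Spp1 (124), Postn (31.9), Enpp1 (11.2), Msx1 (9.58), Runx2 (6.45), Msx2 (0.913), Alpl (0.657), Sp7 (0.260) and Dlx5 (0.131). Mgp ranked 14 of 12733 among the genes that averaged 1 FPKM or more, and Spp1 ranked 564. Enpp1 lay above Msx1 within every library of both groups, though their ranges met with NAC, at 10.7 to 12.2 and 9.83 to 11.1 FPKM. Msx2 and Alpl overlapped in Control, and Sp7 and Dlx5 overlapped in both groups. The 6 genes from Mgp to Runx2 entered the comparison of NAC with Control, and Msx2, Alpl, Sp7 and Dlx5 fell under the limit of 1 FPKM and are given as levels.

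**Figure D1:**
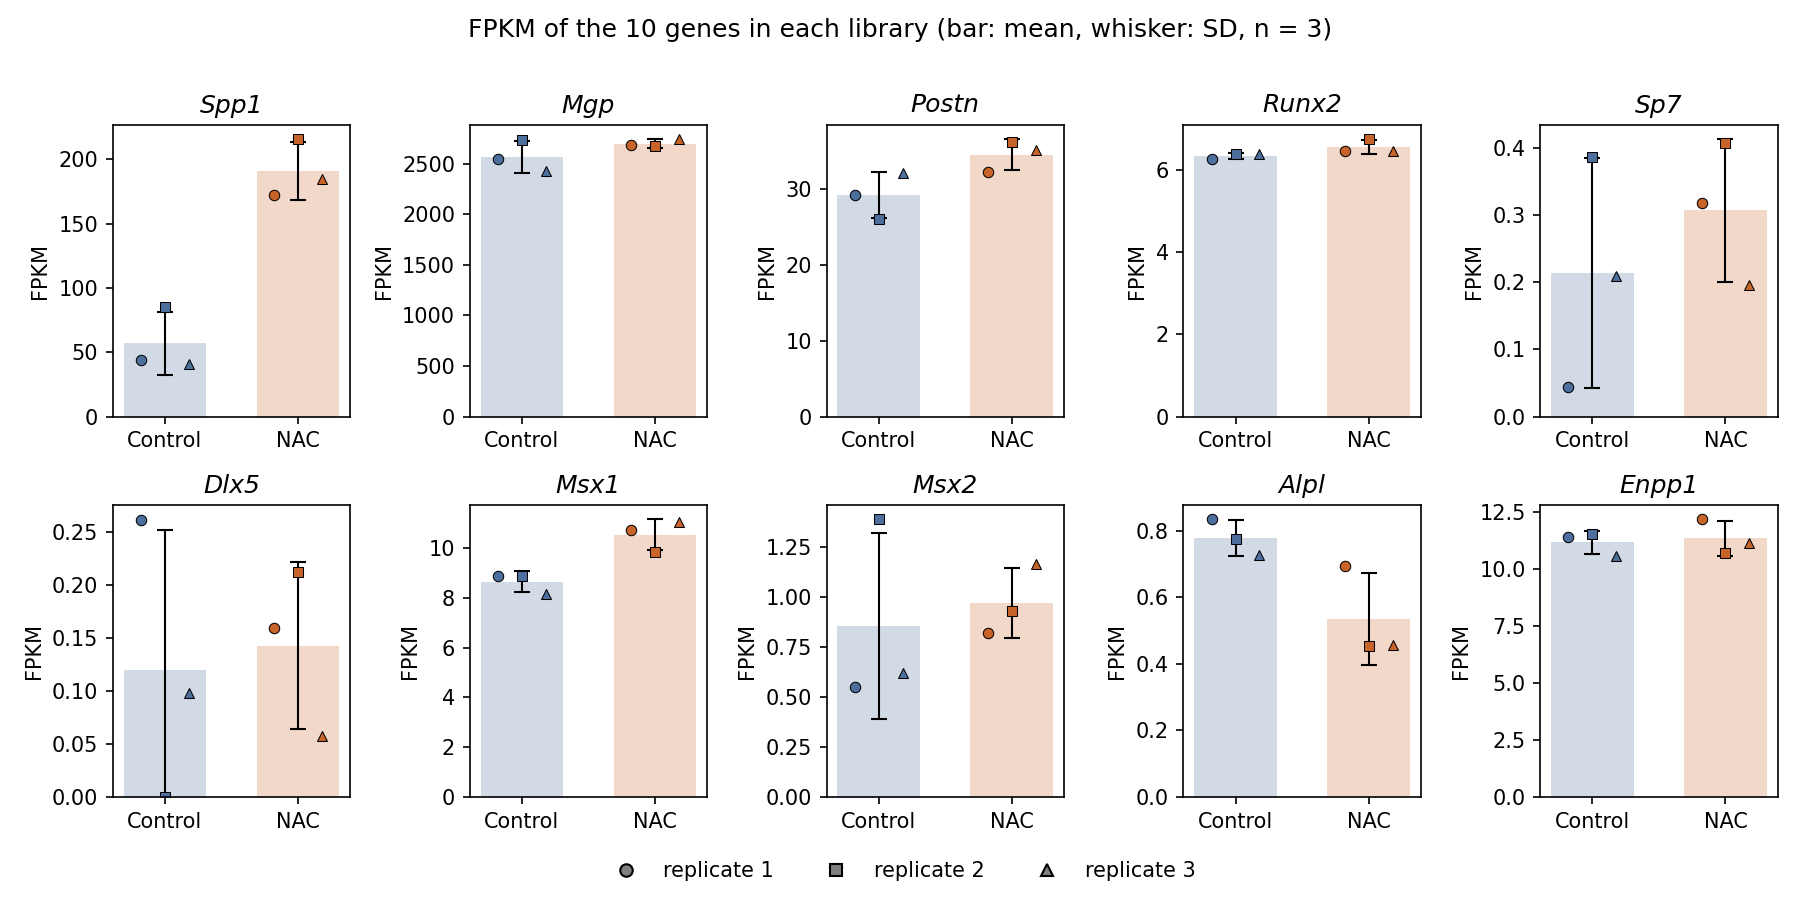
FPKM of each of the 10 genes (vertical axes, from 0, a scale of its own for each gene) in 3 Control libraries (blue) and 3 NAC libraries (orange), with symbols for the replicate number, bars for the mean and whiskers for the SD. Spp1 lies at 41.3 to 85.4 FPKM in Control and 172 to 216 FPKM with NAC, while Mgp, Enpp1, Sp7, Dlx5 and Msx2 overlap between the groups.

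With NAC, osteopontin rose more than 3-fold while the other 5 tested members stayed short of the threshold. NAC was compared with Control by limma on log2(FPKM + 1) over 12733 genes, with Benjamini-Hochberg adjustment and a threshold of 0.05. Of these genes 8.80% were called, 6.08% as higher and 2.72% as lower, against 1 of 6 members higher and none lower. An unadjusted p under 0.05 was reached by 3 of the 6 members and by 3355 of the 12733 genes. All 6 differences were above 0, with a median of 0.16, whereas 48.5% of all tested genes were above 0 and their median was -0.0063. Groups did not overlap, with NAC above, for Spp1, Postn, Runx2 and Msx1, as in 16.7% of tested genes, and no tested member had NAC below throughout. In either direction 32.6% of tested genes did not overlap.

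**Figure D2:**
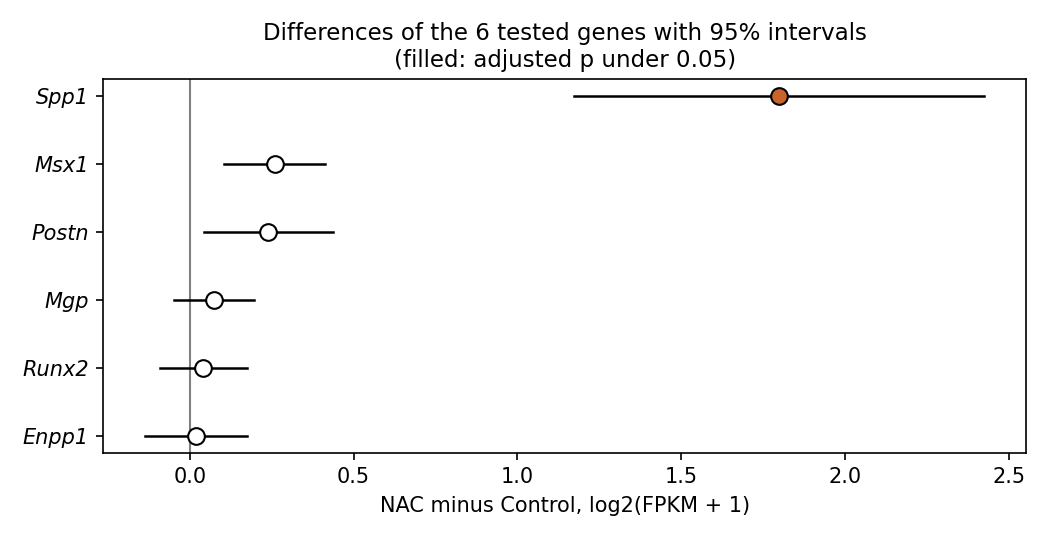
Difference between NAC and Control (horizontal axis, log2(FPKM + 1)) for the 6 tested genes, with limma's 95% intervals as lines and a filled point where the adjusted p is under 0.05. The interval of Spp1, 1.17 to 2.43, lies above those of the other 5 genes, whose upper bounds are at most 0.44.

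Spp1 (ENSRNOG00000043451; chromosome 14, 6673686 to 6679901) encodes osteopontin, a secreted phosphoprotein of bone, inflamed tissue and wound matrix. It stood at 44.4, 85.4 and 41.3 FPKM in Control 1, 2 and 3, from 929, 1651 and 921 reads. With NAC it stood at 172, 216 and 185 FPKM, from 3556, 4459 and 3534 reads. Every NAC library lay above every Control library, and Control 2 lay well above the other Control libraries. The mean went from 57.0 ± 24.6 to 191 ± 22.5 FPKM (SD, n = 3), a ratio of 3.35 and a log2 difference of 1.80 ± 0.26 (SE, limma adjusted p = 0.0115). This was the highest log2 fold change among all 12733 tested genes and among the 774 called higher. Its place in that order fell to 46 with a pseudocount of 0.1 and to 24 with voom on recovered reads. Without Control 2 the difference was 2.12 (adjusted p = 0.000828). Without NAC 2 it was 1.71 and missed the threshold (adjusted p = 0.0570), as it did when genes of any abundance were tested (adjusted p = 0.112). Scaled to library totals instead of as deposited, under which the median of all tested genes moved to -0.16, Spp1 differed by 1.63 and ranked 2.

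**Figure D3:**
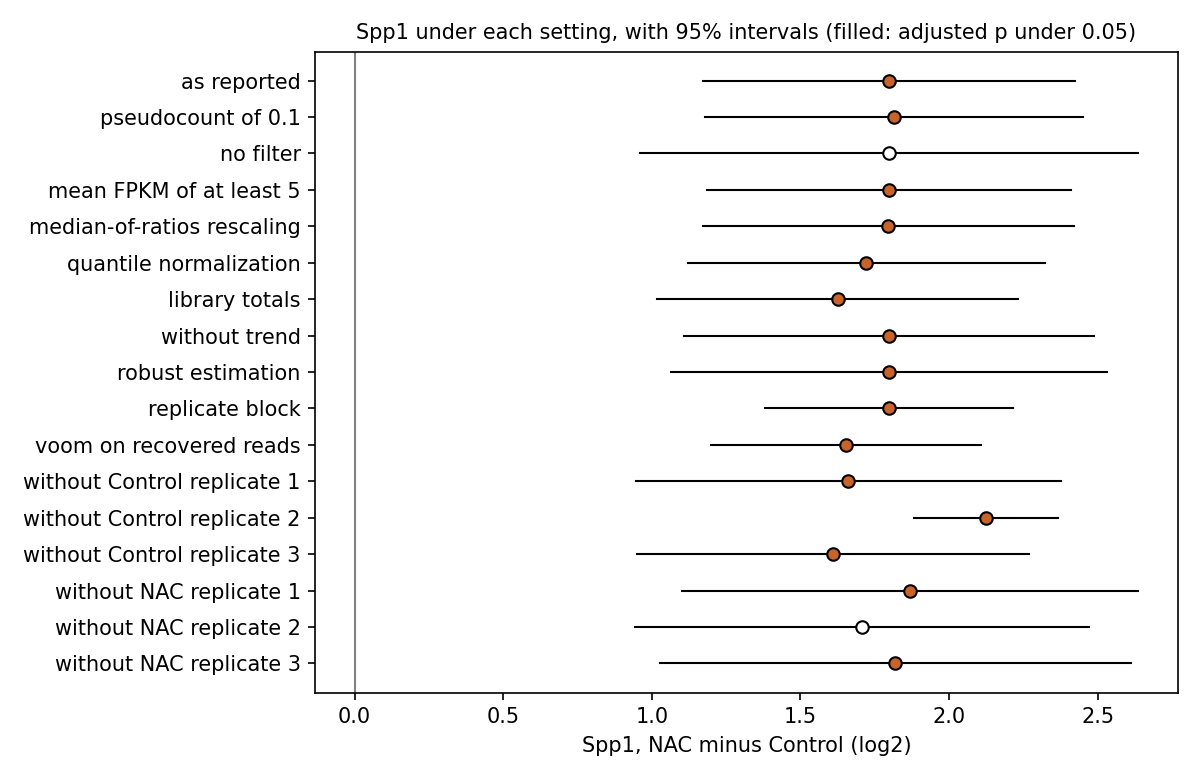
Difference of Spp1 between NAC and Control (horizontal axis, log2) under the reported setting and 16 alternatives (vertical axis), with 95% intervals as lines and filled points where the adjusted p is under 0.05. All values lie between 1.61 and 2.12, and the open points are the fit without a filter and the fit without NAC replicate 2.

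The other matrix members, Postn and Mgp, were not called. Postn (ENSRNOG00000012660; chromosome 2, 143656793 to 143688087), which encodes a fasciclin-domain protein that binds collagen and tenascin-C, stood at 29.2, 26.1 and 32.16 FPKM in Control and 32.24, 36.2 and 35.2 FPKM with NAC. The groups were separate by a margin of less than 0.1 FPKM, between Control 3 and NAC 1. The means were 29.2 ± 3.04 and 34.5 ± 2.06 FPKM (SD, n = 3), a log2 difference of 0.24 ± 0.083 (SE, 95% interval 0.044 to 0.44, limma adjusted p = 0.124). Without Control 2 it was 0.16 (adjusted p = 0.195), and with library totals 0.071.

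Mgp (ENSRNOG00000005695; chromosome 4, 170856751 to 170860225) stood at 2547, 2731 and 2422 FPKM in Control and 2678, 2669 and 2744 FPKM with NAC. Control 2 lay inside the NAC range and the remaining Control libraries below it. The means were 2567 ± 156 and 2697 ± 40.5 FPKM (SD, n = 3), a log2 difference of 0.073 ± 0.052 (SE, limma adjusted p = 0.417). The interval of -0.049 to 0.20 holds no change as well as a rise of that size. Without Control 2 the difference was 0.12 (limma adjusted p = 0.108), and without Control 3 it was 0.032. The sign depended on the scaling. Median-of-ratios rescaling gave 0.070. Library totals gave -0.10, which is 0.0572 above the median of all tested genes under that scaling. Quantile normalization gave -0.23 and a call as lower (limma adjusted p = 0.0245).

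Among the transcription factors Runx2 had the smallest Control spread of the set (CV 1.10%), and Sp7 and Dlx5 were close to the limit of detection. The Runx2 spread, from 486, 458 and 528 Control reads, is under what counting error alone gives on average. It need not be a trait of the gene. Runx2 (ENSRNOG00000020193; chromosome 9, 18564927 to 18773092) stood at 6.26, 6.38 and 6.38 FPKM in Control and 6.46, 6.74 and 6.46 FPKM with NAC. The groups did not overlap, but the means of 6.34 ± 0.0695 and 6.55 ± 0.165 FPKM (SD, n = 3) gave a log2 difference of only 0.042 ± 0.055 (SE, limma adjusted p = 0.674). Its 95% interval ran from -0.089 to 0.17. With library totals the difference turned to -0.11, which is 0.0497 above the median of all tested genes under that scaling. Of the factors upstream or beside it, Msx1 (ENSRNOG00000006876; chromosome 14, 77712240 to 77716059), a homeodomain repressor that keeps progenitors undifferentiated, came nearest to the threshold.

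Msx1 stood at 8.89, 8.86 and 8.15 FPKM in Control and 10.7, 9.83 and 11.1 FPKM with NAC, with no overlap. The means were 8.63 ± 0.421 and 10.53 ± 0.628 FPKM (SD, n = 3), a log2 difference of 0.26 ± 0.065 (SE, 95% interval 0.10 to 0.41, limma adjusted p = 0.0562). It passed when the filter was raised to 5 FPKM (adjusted p = 0.0445; range over all alternatives 0.0445 to 0.354), and the difference was 0.10 with library totals. Its relative Msx2 (ENSRNOG00000018355; chromosome 17, 11683862 to 11689527) stood at 0.551, 1.39 and 0.621 FPKM in Control and 0.820, 0.931 and 1.16 FPKM with NAC. Control 2 was the highest of the 6 libraries, and the groups overlapped, on 68 Control and 76 NAC reads. Without it the other Control libraries lay below all NAC libraries. The share of all genes that separate in this smaller set of libraries was not computed, so nothing is read from it.

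Sp7 (ENSRNOG00000014082; chromosome 7, 143958858 to 143967484), the zinc-finger factor of committed osteoblasts, had 1, 8 and 5 reads in Control and 7, 9 and 4 with NAC, or 0.0447 to 0.387 and 0.195 to 0.408 FPKM. The groups overlapped. Dlx5 (ENSRNOG00000010905; chromosome 4, 32387741 to 32392007), a BMP-responsive homeodomain factor, had 5, 0 and 2 reads in Control and 3, 4 and 1 with NAC. Both groups lay at or under the floor of 3 reads per library, which for this gene is worth 0.147 to 0.171 FPKM, so no fold is given. No difference was detected in either gene (limma voom on recovered reads without a filter, adjusted p = 0.563 for Sp7 and 0.726 for Dlx5).

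The enzymes that set the balance of phosphate and pyrophosphate were Alpl at low level and Enpp1 at moderate level. Alpl (ENSRNOG00000013954; chromosome 5, 156086497 to 156141537) stood at 0.835, 0.774 and 0.727 FPKM in Control and 0.695, 0.453 and 0.456 FPKM with NAC. All NAC libraries lay below all Control libraries, as in 7.07% of the 1231 genes with a mean FPKM under 1 and a mean of at least 10 reads (21.9% in either direction). The Control libraries held 28, 24 and 26 reads (78 in sum, exact Poisson 95% interval 61.7 to 97.3) and the NAC libraries 23, 15 and 14 (52, interval 38.8 to 68.2), and both intervals cover counting error only. It was under the limit for the main test. In fits without a filter it was not called either by limma on log2(FPKM + 1) (adjusted p = 0.474) or by limma voom on recovered reads (log2 difference -0.72, adjusted p = 0.104).

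Enpp1 (ENSRNOG00000013994; chromosome 1, 21748261 to 21813371), the enzyme that makes extracellular pyrophosphate, stood at 11.4, 11.5 and 10.6 FPKM in Control and 12.2, 10.7 and 11.1 FPKM with NAC. The groups overlapped, with the highest and the lowest of the 6 values in NAC 1 and Control 3. The means were 11.2 ± 0.523 and 11.3 ± 0.767 FPKM (SD, n = 3), a log2 difference of 0.020 ± 0.065 (SE, limma adjusted p = 0.879). Its 95% interval ran from -0.135 to 0.175 and holds only for the deposited scaling. The sign turned with library totals (-0.140) and with voom on recovered reads (-0.152), both below that interval. The library-total value is 0.0185 above the median of all tested genes under that scaling.

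The other phosphoproteins of osteopontin's family were low or without reads in both groups. In the list of bone matrix proteins Ibsp, bone sialoprotein, stood at 0.753, 2.32 and 1.27 FPKM in Control and 1.56, 1.98 and 1.32 FPKM with NAC (limma adjusted p = 0.759), with Control 2 highest as for Spp1. Dmp1 and Dspp had no read in any library, Mepe had 1 Control and 4 NAC reads in sum, and Bglap, osteocalcin, had 4 and 3. For Dmp1 and Dspp a count of 0 in a single library allows an expected count of up to about 3 reads, and 0 in every library narrows that further. The 4 genes of the list that were called, all higher, encode abundant matrix proteins of tendon as well as bone. They were Col1a1 (2731 ± 124 to 5453 ± 253 FPKM), Bgn (1743 ± 5.79 to 2554 ± 60.3 FPKM), Sparc (2984 ± 52.5 to 4117 ± 146 FPKM) and Col1a2 (601 ± 77.7 to 800.2 ± 57.0 FPKM; SD, n = 3). They were 4 of 6 tested genes of 12 listed, with a median log2 difference of 0.44, beside 6.08% of all tested genes called higher. The Bgn and Sparc calls ended under quantile normalization (0.031 and 0.030), where the Col1a1 difference went from 0.997 to 0.52. When genes of any abundance were tested, all 4 calls ended. Col1a2 missed the threshold when any library but Control 1 was left out (0.36 to 0.47), under library totals (0.24) and under quantile normalization (0.22).

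**Figure D4:**
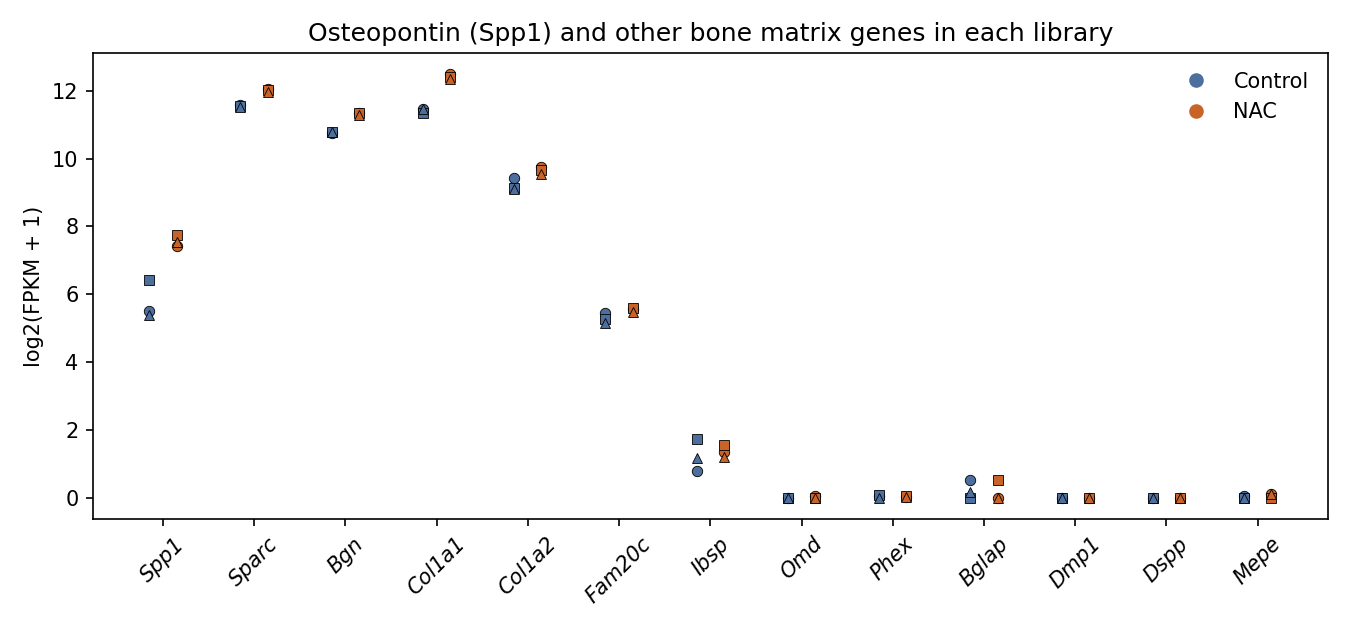
Level of Spp1 and the 12 genes of the bone matrix list (vertical axis, log2(FPKM + 1)) in each Control (blue) and NAC (orange) library, with symbols for the replicate number. Spp1 and the collagen genes Col1a1 and Col1a2 lie higher with NAC, while Omd, Phex, Bglap, Dmp1, Dspp and Mepe lie at or near 0 in both groups.

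Receptors of osteopontin were expressed, and several of their integrin subunits rose. In the list of osteopontin receptors and processing 5 of 11 tested genes of 16 were called higher and none lower, with a median log2 difference of 0.22. The shares over all tested genes were 6.08% higher and 2.72% lower. Itgav, the αv subunit that pairs with β1, β3 or β5 to bind the RGD site of osteopontin, stood at 65.3, 71.7 and 70.9 FPKM in Control and 88.2, 91.3 and 90.8 FPKM with NAC. It rose by 0.38 ± 0.046 (log2, SE, limma adjusted p = 0.00598) and passed in all 16 alternatives. Itga8, an RGD-binding partner of β1, rose from 36.8 ± 3.95 to 51.1 ± 4.69 FPKM (SD, n = 3), Itga5 from 54.2 ± 4.57 to 67.2 ± 1.98 FPKM and Itgb1 from 296 ± 5.36 to 345 ± 4.11 FPKM. The fifth was Mmp9, a gelatinase that can cleave osteopontin, chosen after its value was seen (24.1 ± 5.99 to 46.4 ± 6.81 FPKM).

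Other receptors, also named after their values were seen, did not pass. Cd44, a hyaluronan receptor that also binds osteopontin, stood at 112 ± 15.4 and 112 ± 5.003 FPKM (SD, n = 3; limma adjusted p = 0.977). Itgb5 stood at 84.1 ± 1.59 and 79.3 ± 2.47 FPKM (adjusted p = 0.224) and Itgb3 at 1.47 ± 0.429 and 1.79 ± 0.5003 FPKM (adjusted p = 0.612). Itga9, which binds thrombin-cleaved osteopontin, was under the limit at 0.747, 0.354 and 0.745 FPKM in Control and 1.06, 1.30 and 1.07 FPKM with NAC. The Itga8 call ended without Control 1, Control 3 or any of the 3 NAC libraries (0.39 to 0.51), and that of Itga5 without the same libraries (0.26 to 0.32). Leaving out NAC 1 or NAC 2 ended the call of Itgb1 (0.22 to 0.23), and that of Mmp9 was lost without Control 3 or any NAC library (0.83 to 1.05). With library totals Itga5 (0.14) and Itgb1 (0.047) were not called, nor was Itgb1 with quantile normalization (0.036). With no filter Itgav and Itgb1 passed and Itga8, Itga5 and Mmp9 did not.

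Around periostin, 5 of 6 tested genes of 8 were called higher and none lower (median log2 difference 0.46), beside 6.08% and 2.72% of all tested genes. Tgfbi, the closest relative of periostin and likewise a fasciclin-domain protein, stood at 18.01, 25.7 and 24.7 FPKM in Control and 39.2, 40.4 and 45.1 FPKM with NAC. It rose by 0.85 ± 0.13 (log2, SE, limma adjusted p = 0.0138), a call lost without NAC 2 (0.87, adjusted p = 0.0587). Fn1, fibronectin, rose by 0.93 ± 0.043, Tnc, tenascin-C, by 0.67 ± 0.13 and Lox, a collagen crosslinking enzyme, by 0.24 ± 0.034. Bmp1, the procollagen C-proteinase that also acts with periostin on lysyl oxidase, rose by 0.23 ± 0.052 and was chosen after its value was seen. The Tnc call ended without Control 1, Control 3 or any NAC library (0.56 to 0.71), that of Lox without NAC 1 or NAC 2 (both 0.24) and that of Bmp1 without any 1 of the 6 libraries (0.18 to 0.27). Lox (0.069) and Bmp1 (0.056) were not called with library totals, nor with quantile normalization (0.055 and 0.20), where Fn1 went down to 0.56. With no filter none of the 5 passed. Ccn3, listed under its older name and also chosen after its value was seen, stood at 271 ± 24.8 and 218 ± 19.6 FPKM (adjusted p = 0.0763).

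Among genes of vitamin K carboxylation and calcification inhibitors, 1 of 5 tested of 8 was called, beside 8.80% of all tested genes. The called gene was Ggcx, the carboxylase that modifies matrix Gla protein, at 47.5, 45.1 and 46.9 FPKM in Control and 64.3, 63.1 and 61.8 FPKM with NAC. It rose by 0.43 ± 0.038 (log2, SE, limma adjusted p = 0.00199) and passed in all 16 alternatives (0.26 with library totals). Vkorc1, which recycles vitamin K for it, stood at 28.5 ± 1.78 and 29.8 ± 0.438 FPKM (SD, n = 3; adjusted p = 0.481). Tnfrsf11b, osteoprotegerin, stood at 24.1 ± 1.06 and 28.4 ± 2.85 FPKM (adjusted p = 0.120) and Gas6, another Gla protein, at 304 ± 58.4 and 264 ± 23.0 FPKM (adjusted p = 0.450). Ahsg, Ucma and Sost had no reads, and the median log2 difference of the list was 0.23.

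Of 13 genes of phosphate, pyrophosphate and matrix vesicles 11 were tested and 3 called, all higher (median 0.21), beside 6.08% of all tested genes called higher. Enpp3, a relative of Enpp1 that degrades extracellular nucleotides, stood at 143, 112 and 129.9 FPKM in Control and 195, 185 and 165 FPKM with NAC. It rose by 0.50 ± 0.0998 (log2, SE, limma adjusted p = 0.0301), a call lost without Control 3, NAC 1 or NAC 2 (0.45 to 0.52). The annexins Anxa5 and Anxa6, calcium-binding proteins found in matrix vesicles, rose by 0.28 ± 0.048 and 0.21 ± 0.036. Leaving out Control 3 or any NAC library ended both calls, and for Anxa5 also leaving out Control 1 (0.24 to 0.31 for Anxa5 and 0.20 to 0.22 for Anxa6), as did library totals (0.10 and 0.032). Under quantile normalization Anxa5 (0.14), Anxa6 (0.099) and Enpp3 (0.40) were not called, and with no filter none of them passed. Ankh, a pyrophosphate exporter, stood at 22.8 ± 3.57 and 29.5 ± 2.64 FPKM (SD, n = 3; adjusted p = 0.101). Phospho1, a phosphatase of matrix vesicles, stood at 5.68 ± 0.464 and 6.66 ± 0.948 FPKM (adjusted p = 0.313), and the phosphate importer Slc20a1 at 71.0 ± 14.8 and 59.8 ± 4.91 FPKM (adjusted p = 0.348).

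No gene in the list of osteogenic transcription factors and partners was called among 10 tested of 17 by limma, beside 8.80% of all tested genes. The list's median log2 difference was 0.036, and it turned to -0.13 with library totals and -0.015 without NAC 3. Twist2, a repressor of RUNX2 activity in early progenitors, stood at 141, 171 and 146 FPKM in Control and 178, 204 and 219 FPKM with NAC. The groups did not overlap (adjusted p = 0.0592; range over all alternatives 0.0305 to 0.291), and it passed without Control 2 (0.47) and at a mean FPKM of at least 5. Zfp521 of the same list, named after its value was seen, came as near in the other direction. It stood at 9.17 ± 0.942 and 7.21 ± 0.255 FPKM (SD, n = 3; log2 difference -0.31, limma adjusted p = 0.0619), with no overlap. Atf4, which drives osteocalcin and amino acid supply in osteoblasts, stood at 158 ± 6.63 and 145 ± 5.73 FPKM (SD, n = 3; adjusted p = 0.146) and was called lower with library totals (-0.30, adjusted p = 0.00760), with voom (-0.30, adjusted p = 0.00178) and with quantile normalization (-0.24, adjusted p = 0.0140). Dlx6 and Msx3, relatives of the homeodomain members, had no reads.

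In the BMP signalling list, the pathway that induces Dlx5 and Msx genes in skeletal tissue, 1 of 19 tested genes of 23 was higher and 1 lower (median -0.036). The shares over all tested genes were 6.08% and 2.72%, so 1 gene each way does not set the list apart. Id1, a target gene of BMP signalling, stood at 36.2, 37.96 and 34.7 FPKM in Control and 47.6, 46.01 and 52.2 FPKM with NAC. It rose by 0.41 ± 0.059 (log2, SE, limma adjusted p = 0.0112), and did not pass with no filter (adjusted p = 0.0787). Its relatives Id2 (-0.036), Id3 (0.21) and Id4 (0.16) were not called, nor was Bmp4 (-0.37), all named after their values were seen.

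**Figure D5:**
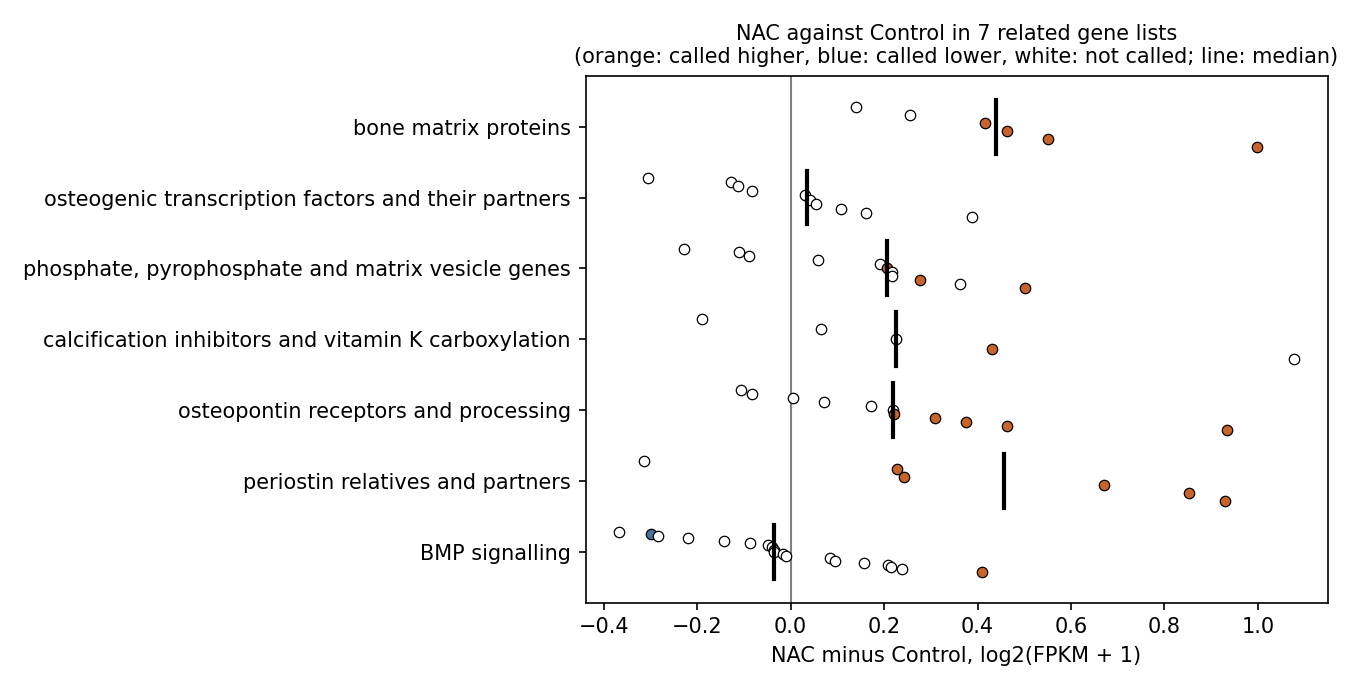
Differences between NAC and Control (horizontal axis, log2(FPKM + 1)) of the tested genes in 7 lists (vertical axis), 1 point a gene, orange where called higher, blue where called lower and white where not called, with a line at each list's median. Medians run from -0.036 for BMP signalling to 0.46 for the periostin relatives and partners.

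Genes were ranked by the likeness of their pattern over the 6 libraries to that of Spp1. Those at the top share its high Control 2 value through that choice. Over 11017 tested genes with a name, Pearson correlations of log2(FPKM + 1) with Spp1 were highest for Mfge8 (0.998), Rpl17 (0.997), Pbxip1 (0.997), Ankrd34a (0.996) and Slfn2 (0.996). Mfge8, which encodes a secreted RGD-containing glycoprotein, stood at 442, 487 and 433 FPKM in Control and 563, 589 and 562 FPKM with NAC, in the same order of libraries within Control as Spp1. The genes most like Mgp were Trpc4 (0.988), Bcar3 (0.985) and Cd82 (0.984), and those most like Postn were Zfp54 (0.991), Fam105a (0.9897) and Tnfaip8 (0.989). With 6 libraries in 2 groups such values describe these libraries and carry no test.

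Cells that make much osteopontin elsewhere were looked for by their markers. Macrophage markers summed to 23.3 to 26.6 FPKM in Control and 24.4 to 25.6 FPKM with NAC. Of these 9 markers 5 (Ptprc, Adgre1, Cd163, Aif1 and Itgam) were at the floor, Ptprc and Cd163 with no reads. The sum was nearly all Cd14 (means of 14.0 and 15.3 FPKM), Lyz2 (5.59 and 5.27 FPKM) and Cd68 (5.18 and 4.33 FPKM), none of them called. Osteoclast markers summed to 62.8 to 64.4 and 90.3 to 91.6 FPKM, and 4 of 6 (Oscar, Ocstamp, Dcstamp and Calcr) were at the floor. The sum was nearly all Ctsk, cathepsin K, a protease that fibroblasts also express (59.7 ± 0.251 and 85.8 ± 0.685 FPKM; SD, n = 3). Ctsk was called higher (log2 difference 0.52, limma adjusted p = 0.00052). Acp5 (means of 4.09 and 5.15 FPKM) had NAC above with no overlap and was not called (adjusted p = 0.146). The osteoblast and osteocyte markers summed to 2.52 to 3.72 FPKM in Control and 2.50 to 3.53 FPKM with NAC, and chondrocyte markers to 10.46 to 14.7 and 10.2 to 11.8 FPKM. Smooth muscle and pericyte markers summed to 415 to 511 and 315 to 383 FPKM, mostly Acta2 (366 ± 43.3 and 278 ± 29.6 FPKM; SD, n = 3), which was not called (limma adjusted p = 0.0655). These markers did not move together. Myh11 was called lower and Cnn1 was lower without a call (-0.30). Cspg4 (0.21) and Des (0.28) were higher without a call, and Rgs5 was at the floor. The part of these markers in the Spp1 result was not tested. In bulk RNA fewer cells of a type and less RNA per cell cannot be told apart.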

How the data were processed

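RNA was sequenced from 6 rat libraries, and the authors deposited 1 table of FPKM values with gene lengths. Per the submitters' processing notes the builds are GRCm38 and mm10, which are mouse builds, whereas the identifiers are rat. No source used here gives the aligner, counter or strand setting, so sense and antisense reads cannot be told apart. Columns headed N were taken as Control by elimination. Multiplying each deposited FPKM by its gene's length gave whole reads (tolerance 0.01, 100% of values).

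NAC was compared with Control on log2(FPKM + 1) for genes averaging 1 FPKM or more by limma 3.58.1 in R 4.3.3 (eBayes with trend, two-sided), with adjustment over all 12733 genes. The pseudocount understates changes of low genes. The test was checked on simulated data. Members and lists were chosen with earlier results of these data known. The values of 1 list gene are not reported here. Named genes were all members, up to 4 called genes per list by adjusted p (or the 2 most abundant), the genes most like Spp1, Mgp and Postn (placeholder names left out), and levels from the bone, phosphate and inhibitor lists. Alternatives were a pseudocount of 0.1, other filters (none, 5 FPKM), scalings and moderation, the replicate block, limma voom on recovered reads and leaving out each library. Voom without a filter was added after the data were seen, for members of low level. Figures used Python 3.11.15 and matplotlib 3.10.9.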

Additional observations from a re-analysis of the deposited data

How the results depend on the processing

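Spp1 was higher in all 16 alternatives (log2 difference 1.61 to 2.12, also the range over left-out libraries) and missed the threshold without a filter (1.80) and without NAC 2 (1.71). Counts of members called higher were 0 without a filter, 2 at a mean FPKM of at least 5 and 0 to 1 with a library left out, and 1 was called lower with quantile normalization.

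Over all genes 235 were higher and 99 lower without a filter, 467 and 3722 with library totals, 533 and 4197 with voom, 549 and 206 without a trend, 567 and 408 with quantile normalization, and 264 to 859 and 51 to 347 with a library left out. With median-of-ratios rescaling 772 were higher and 361 lower. As reported 6.08% of all tested genes were called higher and 2.72% lower. Calls were 69.1% higher as reported, 11.1% with library totals, 11.3% with voom and 58.2% with quantile normalization. Genes of the lists called higher and lower numbered 19 and 1 as reported, 3 and 0 without a filter, 10 and 5 with quantile normalization, 12 and 17 with library totals, 13 and 19 with voom, 10 and 1 without a trend, 21 and 3 at a mean FPKM of at least 5, and 7 to 22 and 0 to 5 with a library left out.

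Signs turned with library totals and voom for Runx2 (-0.11 and -0.13), Enpp1 (-0.14 and -0.15), Mgp (both -0.10), Bcar3 (-0.13 and -0.14), Cd82 (-0.082 and -0.083) and the median of the transcription factor list (-0.13 and -0.14, and -0.015 without NAC 3). They turned with quantile normalization for Mgp (-0.23), Cd82 (-0.022) and Rpl17 (-0.022), and for Enpp1 without Control 3 (-0.016) or NAC 1 (-0.029; range over left-out libraries -0.029 to 0.058). Library totals and voom move the median of all genes to -0.16 and -0.18, and quantile normalization gives equal ranks equal values. Relative to the median of all genes, the values with library totals were 0.0497 for Runx2, 0.0185 for Enpp1 and 0.0572 for Mgp. Median-of-ratios rescaling gave 0.039, 0.017 and 0.070 for the same genes. Other causes were not tested.

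With the replicate block 466 genes were higher and 110 lower, 15 list genes were higher and 0 lower, and Spp1 was 1.80 (limma adjusted p = 0.0137). Deviations of same-numbered libraries correlated at 0.063, 0.059 and -0.050, so the numbers were not treated as pairs. Depth limits Sp7, Dlx5, Msx2 and Alpl, with 7 to 78 reads per group.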
